A study of Homo sapiens with 12 samples.

Results

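The MIR221 and MIR222 hairpins lie side by side on the X chromosome, and each is cut into a strand from its 5′ arm (5p) and a strand from its 3′ arm (3p). The 4 mature miRNAs of this locus, miR-221-3p, miR-221-5p, miR-222-3p, and miR-222-5p, were taken by name from the 2588 mature miRNAs in the count table, of which 1417 had at least 1 read. Small RNA had been sequenced from A549 cells, an epithelial-like lung adenocarcinoma line, after 0, 24, and 96 h of TGF-β treatment to follow miRNAs through epithelial-mesenchymal transition (EMT). There were 2 libraries at each of the 3 time points. The sample titles give each library 2 dates, read here as 2 sequencing runs of that library. The titles do not say what was repeated between the dates. The deposited counts add both runs up, so that 12 runs gave 6 values per miRNA. All cells were of this single line and carried no engineered allele, and they had been held in serum-free medium before TGF-β1 was added. No untreated culture was sequenced at 24 or 96 h, so time in culture and TGF-β cannot be told apart. The labels do not say that the 2 libraries of a time point came from separate cultures, and p-values therefore measure the spread between these libraries, which may be technical.

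A miRNA acts as a guide inside an Argonaute protein, and pairing of its bases 2 to 8, the seed, with a messenger RNA lowers the output of that RNA. Drosha and Dicer release both strands of a hairpin as a duplex, of which Argonaute usually keeps the strand with the less tightly paired 5′ end. The pair miR-221 and miR-222 is made from a shared primary transcript and is abundant in many carcinomas, where it is known to repress the cell-cycle inhibitor CDKN1B (p27) and the receptor KIT. Among breast cancer lines, the basal-like ones are known to hold more of both miRNAs than the luminal ones.

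The mature strands are shown first because the shared seed ties the 2 abundant members together. RefSeq gave sequences for 3 of the 4 members; capitals mark bases 2 to 8.
hsa-miR-221-3p: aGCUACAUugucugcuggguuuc
hsa-miR-222-3p: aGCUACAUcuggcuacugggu
hsa-miR-222-5p: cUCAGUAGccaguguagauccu
Bases 1 to 8 of miR-221-3p and miR-222-3p were the same, and the first difference was U9C, counted from the 5′ end of miR-221-3p. Over the 21 bases that could be compared position by position, without gaps, 11 were equal and 10 differed. An alignment with a gap, which would leave fewer differences, was not made. Among the counted miRNAs with a RefSeq sequence, none besides these 2 had the seed GCUACAU, and none besides miR-222-5p had the seed UCAGUAG.

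On GRCh37 both hairpins lay on the minus strand, MIR221 at chrX:45605585-45605694 and MIR222 at chrX:45606421-45606530, with 726 bases between them. Both were inside the gene of the long noncoding RNA MIR222HG (chrX:45604638-45629677, minus strand) and entirely within an intron of its transcript MIR222HG-201. The shorter transcript MIR222HG-203 reached 24 of the 110 bases of MIR221 with an exon and did not reach MIR222. The hairpins, in RefSeq's sequence, which matched the GRCh37 genome base for base, are printed to show where the strands lie; capitals mark the arms with a RefSeq mature sequence.
MIR221: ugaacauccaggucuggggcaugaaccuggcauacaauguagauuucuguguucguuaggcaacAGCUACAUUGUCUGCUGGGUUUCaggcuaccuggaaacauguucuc
MIR222: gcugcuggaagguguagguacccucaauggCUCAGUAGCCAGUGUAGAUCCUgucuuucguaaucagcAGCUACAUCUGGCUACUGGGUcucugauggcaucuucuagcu
The 3p strand took bases 65 to 87 of MIR221 (chrX:45605608-45605630) and bases 69 to 89 of MIR222 (chrX:45606442-45606462). The 5p strand of MIR222 took bases 31 to 52 of its hairpin (chrX:45606479-45606500).

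Library totals over mature miRNAs came to 2335185 and 2456447 reads before TGF-β, 2545769 and 3214230 after 24 h, then 5971197 and 4658823 after 96 h. The oncogenic miRNA miR-21-5p took 52.4% to 65.5% of these counts, most at 96 h, which lowers the share left to every other miRNA. Levels are therefore given as CPM (reads scaled to a common library size) after TMM normalization (TMM CPM), which sets the libraries so that most miRNAs have similar levels, and the same values are given under other normalizations where they differ. Summed levels of miRNAs that mark other cells were low for leukocytes and blood (4.77 to 5.49 TMM CPM at 0 h, 2.14 to 2.61 at 24 h, and 1.13 to 1.36 at 96 h), with 4 of 5 listed miRNAs detected and miR-223-3p at 0 in every library. Fibroblast miRNAs, 4 of 5 detected and miR-214-3p at 0, summed to between 1.19 and 2.56 TMM CPM at 0 h, between 1.49 and 5.51 at 24 h, and between 9.22 and 10.9 at 96 h. The endothelial pair miR-126-3p and miR-126-5p summed to between 404 and 515 TMM CPM over all libraries, muscle miRNAs to at most 1.83, and the 6 epithelial miRNAs, all detected, to 119 to 120 at 0 h, 153 to 181 at 24 h, and 235 to 243 at 96 h. Most of that last difference lay in miR-200b-3p and miR-200a-3p, which reached means of 134 and 71.8 TMM CPM at 96 h, while miR-200c-3p had means of 18.04 at 0 h and 17.5 at 96 h. miRNAs of the labelled epithelial cell type were thus present throughout, and the part of these shifts in the results below was not tested.

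Both 3p strands were lower during TGF-β-induced EMT, miR-221-3p to about 50.5% and miR-222-3p to about 62.3% of its 0 h level at 96 h, while miR-221-5p stayed near 206 TMM CPM. miR-221-3p measured 2597 and 2753 TMM CPM in the 2 libraries at 0 h, 1997 and 1707 after 24 h, then 1372 and 1327 after 96 h. The highest library of each later time point was below the lowest of the time point before it. The same held for 28.5% of the tested miRNAs between 0 and 24 h and for 31.6% between 24 and 96 h. The means were 2675 ± 111 at 0 h, 1852 ± 205 at 24 h, and 1350 ± 31.8 TMM CPM at 96 h (SD, n = 2). These values rested on 4893 to 9226 reads per library.

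miR-222-3p measured 2557 and 2311 TMM CPM at 0 h, 1558 and 1636 after 24 h, then 1551 and 1479 after 96 h. Here most of the difference lay between 0 and 24 h, and the 24 and 96 h libraries nearly touched, at 1558 and 1551. The means were 2434 ± 174, 1597 ± 55.0, and 1515 ± 51.0 TMM CPM (SD, n = 2), from 4187 to 7744 reads per library. Summed over both 3p strands, which share a seed, the level was 5108 ± 63.2 TMM CPM at 0 h, 3449 ± 150 at 24 h, and 2865 ± 82.8 at 96 h (SD, n = 2). As a plain share of all reads the sum was 0.647% ± 0.0625, 0.358% ± 0.0249, and 0.219% ± 0.00447 (SD, n = 2). A rank within a library does not depend on the normalization. miR-221-3p was the 33rd and 32nd most abundant miRNA at 0 h, the 43rd and 44th at 24 h, and the 49th and 50th at 96 h. miR-222-3p moved from the 34th and 35th to the 46th in both 96 h libraries.

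miR-221-5p, the minor strand of MIR221, measured 226 and 184 TMM CPM at 0 h, 198 and 217 after 24 h, then 203 and 210 after 96 h, from 533 to 893 reads per library. The 3 time points overlapped, with means of 205 ± 29.4, 207 ± 12.9, and 206 ± 5.17 TMM CPM (SD, n = 2). In CPM of the total count it measured 264 and 251 at 0 h, 209 and 220 after 24 h, then 150 and 166 after 96 h. miR-222-5p, the minor strand of MIR222, was counted 5 and 7 times at 0 h, 9 times in each 24 h library, and 5 times in each 96 h library. It did not pass the expression filter, and a difference in its level was not detectable at this depth. Without the filter its log2-fold change was 0.64 ± 0.69 (SE) at 24 h and −0.60 ± 0.75 at 96 h against 0 h (adjusted p = 0.823 and 0.815, quasi-likelihood F-test of edgeR, Benjamini-Hochberg adjustment over 1417 miRNAs). The order of the 4 levels at 0 h was miR-221-3p, miR-222-3p, miR-221-5p, and miR-222-5p. The 0 h libraries of miR-221-3p were both above those of miR-222-3p, although the lower of the former (2597 TMM CPM) and the higher of the latter (2557), both from replicate 1, were closer than the 2 libraries of either miRNA. At 96 h miR-222-3p was above miR-221-3p in both libraries.

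**Figure D1:**
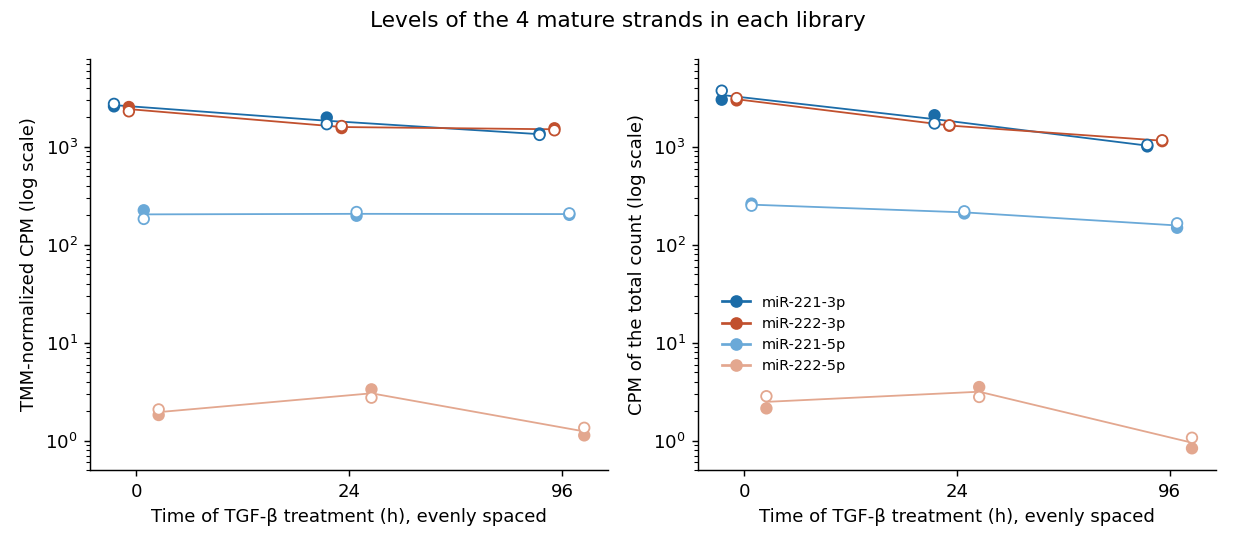
Level of each mature strand in each library against the time of TGF-β treatment, as TMM CPM (left) and as CPM of the total count (right), both on a log axis with the 3 time points evenly spaced; filled points are replicate 1, open points replicate 2, and lines join the means. The 2 3p strands run together from between 2311 and 2753 TMM CPM at 0 h to between 1327 and 1551 at 96 h, miR-221-5p runs level in the left panel and downwards in the right, and miR-222-5p stays below 4 CPM in all libraries.

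At 24 h against 0 h the log2-fold change was −0.53 ± 0.14 (SE) for miR-221-3p and −0.61 ± 0.13 for miR-222-3p, with adjusted p = 0.0475 and 0.0256 (quasi-likelihood F-test of edgeR, Benjamini-Hochberg adjustment over 491 miRNAs). Both met the adjusted p threshold of 0.05, as did 3.67% of the tested miRNAs in the downward direction, and neither met the threshold of 1 on the log2 scale that the study added, which 3.46% of the tested miRNAs met together with the first in either direction and 2.24% in the downward direction. Of the 3 members tested, 0 therefore counted as differentially expressed by both thresholds, and DESeq2 gave the same count. The unadjusted p of edgeR's F-test was 0.0032 for miR-221-3p and 0.000992 for miR-222-3p. The adjusted p of miR-221-3p rose to 0.157 and 0.247 on leaving out 24h replicate 1 or 24h replicate 2, and to 0.0952 and 0.0946 on leaving out 96h replicate 1 or 96h replicate 2. That of miR-222-3p rose to 0.204 and 0.133 without the first and the second library of 24 h. The adjusted p also rose above 0.05 with only the libraries of both time points in the fit (0.0937 for miR-221-3p and 0.0645 for miR-222-3p) and, for miR-221-3p, without a filter (0.0626), with limma on the normalized values (0.0505), and with the replicate number as a block (0.0699). In the order of all 491 changes, miR-221-3p was the 93rd and miR-222-3p the 80th from the lowest.

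At 96 h against 0 h the log2-fold change was −0.99 ± 0.14 (SE) for miR-221-3p and −0.68 ± 0.13 for miR-222-3p, and edgeR gave adjusted p = 0.000460 and 0.00269 for them. miR-221-5p differed by 0.01 ± 0.16 (adjusted p = 0.960), but by −0.71 under total counts (0.00474) and −0.77 with limma on the normalized values (0.0267). Both 3p strands met the adjusted p threshold, which 21.2% of the tested miRNAs met in the downward direction. Again 0 of the 3 tested members met both thresholds, against 25.9% of all 491 miRNAs (13.2% downwards), and DESeq2 gave the same count. The unadjusted p of edgeR's F-test was 3.19e-05 for miR-221-3p and 0.000421 for miR-222-3p. Groups that did not overlap, lower at 96 h, were found for 38.7% of the tested miRNAs. miR-221-3p sat at the edge of the fold threshold. Leaving out 0h replicate 1 (−1.03), 24h replicate 2 (−1.05), 96h replicate 1 (−1.07), or 96h replicate 2 (−1.03) carried it past. It stayed inside with all libraries and on leaving out 0h replicate 2 or 24h replicate 1.

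Between 24 and 96 h the log2-fold change was −0.46 ± 0.14 (SE) for miR-221-3p, −0.08 ± 0.13 for miR-222-3p, and −0.01 ± 0.16 for miR-221-5p, with adjusted p = 0.0541, 0.734, and 0.984 (quasi-likelihood F-test of edgeR, Benjamini-Hochberg adjustment). Of the tested miRNAs 5.91% met both thresholds in this comparison (2.24% downwards) and 12.6% the adjusted p alone, and 0 of the 3 members did; DESeq2 gave the same count. miR-221-3p alone had an unadjusted p under 0.05, and its adjusted p came to 0.0106 and 0.0102 on leaving out 0h replicate 1 or 0h replicate 2. It came to 0.411 and 0.120 on leaving out 24h replicate 1 or 24h replicate 2, and to 0.261 and 0.252 on leaving out 96h replicate 1 or 96h replicate 2. Other settings also carried it past an adjusted p of 0.05: total counts (−0.90, adjusted p = 0.00862), total counts without miR-21-5p (−0.63, 0.0235), a filter at a mean of 10 CPM (−0.52, 0.0362), and only the libraries of both time points (−0.46, 0.0108). Under total counts miR-222-3p passed as well (−0.52, adjusted p = 0.0221). Under the remaining settings, leaving out a library aside, the adjusted p of miR-221-3p came to at most 0.120. The comparisons of 24 and 96 h with 0 h share the 0 h libraries and are not independent.

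The second run of 0h replicate 1 was dated together with that of both 96 h libraries, and the second run of 0h replicate 2 together with that of both 24 h libraries, while all first runs shared a date. With only the 0 h library of the matched date in the fit, the 96 h change was −0.94 for miR-221-3p and −0.75 for miR-222-3p, and the 24 h change was −0.57 and −0.53 on the log2 scale. Over all libraries the 96 h change was −0.99 and −0.68, and the 24 h change −0.53 and −0.61. The fits with the matched date rest on 1 library at 0 h, and every library also holds a first run of the shared date. The part that the run date plays in these changes was not tested. Between 24 and 96 h, the date of the second run and the time point cannot be told apart. In the runs that could be separated, of which each library has 1 from the shared first date, miR-221-3p stood at 1583 to 1930 CPM of the run's total in the 4 runs at 24 h and at 939 and 948 in the 2 runs of 96h replicate 1. These run values are scaled to the run's total over all 2822 entries. Under total counts over the 2588 mature names, with 1 entry each, the log2 difference between 24 and 96 h was −0.90 rather than the −0.46 under TMM. In TMM CPM the same libraries stood at 1997 and 1707 at 24 h and at 1372 in 96h replicate 1.

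Normalization decided how large the differences appeared. Scaled to the total count, miR-221-3p changed by −1.72 ± 0.16 (SE) and miR-222-3p by −1.41 ± 0.13 on the log2 scale at 96 h against 0 h, past both thresholds, with adjusted p = 8.61e-05 and 7.09e-05 in edgeR; over the 11 alternatives other than leaving out a library the adjusted p ran from 7.61e-07 to 0.00308 and from 7.09e-05 to 0.0141. Without miR-21-5p in the total the changes were −1.34 and −1.04. Under the same scalings miR-221-5p changed by −0.71 (adjusted p = 0.00474; range over the alternatives 0.00474 to 0.989) and −0.34, so that its direction depended on the normalization. The median of all 491 miRNAs moved with it, from −0.10 under TMM to −0.83 under the total count and −0.45 under the total without miR-21-5p, and at 24 h from −0.00 to −0.30 and −0.19. In each of these normalizations both 3p strands lay below the median of all miRNAs and miR-221-5p above it.

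**Figure D2:**
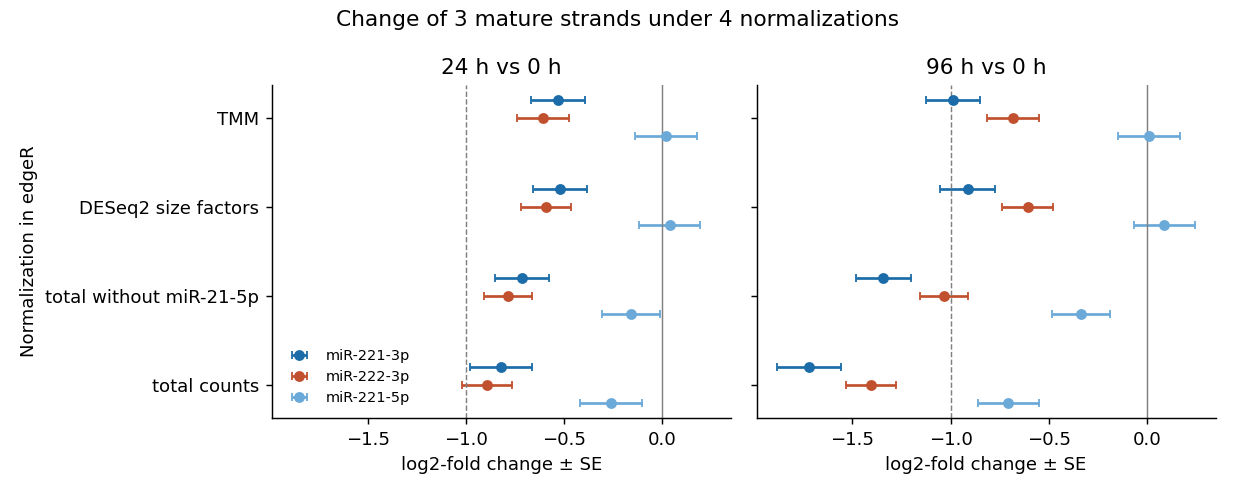
Log2-fold change with its standard error (bars) for miR-221-3p, miR-222-3p, and miR-221-5p at 24 h and at 96 h against 0 h under 4 normalizations in edgeR; the solid line is 0 and the dashed line the threshold of −1. The 2 3p strands lie left of miR-221-5p in every row, and at 96 h they cross the dashed line under the total count, at −1.72 and −1.41, but not under TMM, at −0.99 and −0.68.

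The ratio of the strands of a hairpin is taken within a library and is free of the normalization. In the MIR221 hairpin the 5p strand made up 8.00% and 6.27% of the reads at 0 h, 9.04% and 11.3% after 24 h, then 12.9% and 13.7% after 96 h. No library of a later time point fell below one of an earlier time point. The 95% Wilson intervals, which cover counting error only, ran from 5.81% to 8.62% over both 0 h libraries, from 8.33% to 12.1% at 24 h, and from 12.1% to 14.6% at 96 h. The means were 7.13% ± 1.22, 10.1% ± 1.57, and 13.3% ± 0.559 (SD, n = 2), or 13.2, 8.97, and 6.55 reads of miR-221-3p for each read of miR-221-5p.

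This difference did not pass the test across hairpins. The log2 ratio of 5p to 3p in MIR221 was higher by 0.56 ± 0.27 (SE) at 24 h and by 1.003 ± 0.27 at 96 h than at 0 h, and by 0.44 ± 0.27 at 96 h than at 24 h (limma on log2 ratios over 108 hairpins, Benjamini-Hochberg adjusted p = 0.691, 0.130, and 0.502; unadjusted p = 0.0749, 0.00724, and 0.139). Leaving out 1 library gave 0.37 to 0.75 at 24 h against 0 h and 0.27 to 0.62 at 96 h against 24 h. At 96 h against 0 h the change was the 7th highest of 108 hairpins, whose median was −0.03 and whose range was −1.97 to 2.08. Time points that did not overlap, with more 5p at the later time, were found for 14.8% of hairpins at 24 h and 26.9% at 96 h against 0 h, and for 27.8% at 96 h against 24 h. Passing the test was rare: 0% of hairpins did at 24 h (7 with an unadjusted p under 0.05) and 0.926% at 96 h (22 with an unadjusted p under 0.05), and edgeR's interaction test called the same numbers. The single hairpin called at 96 h was that of miR-27b, towards its 3p strand by −1.40 on the log2 scale, and is named here after its value was seen. Without 0h replicate 1, the library with the higher 0 h share, the MIR221 change was 1.19 with an adjusted p of 0.0301 and 18 hairpins were called in place of 1. Leaving out the other libraries gave adjusted p values up to 0.414. The count was 3 without 0h replicate 2 and with the replicate number as a block. It was 0 without any 1 library of 24 or 96 h, with only the libraries of both time points, and with every hairpin that had a count on each strand. Between 24 and 96 h 0 hairpins passed with all libraries in the fit, and 6 passed with only the libraries of both time points. An exact permutation test of the share over 2 against 2 libraries cannot go below p = 0.333, which it reached here for 24 h and for 96 h against 0 h.

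**Figure D3:**
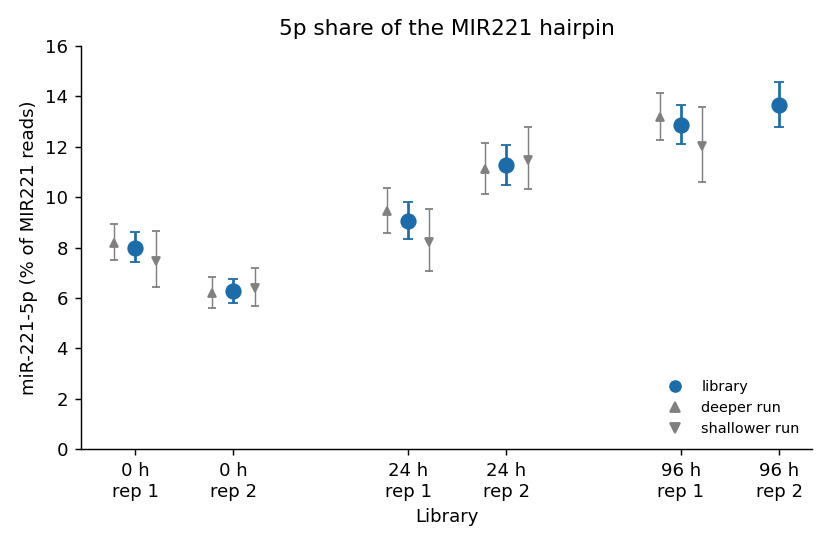
Share of miR-221-5p among the reads of the MIR221 hairpin (%) in each library (circles) and in each of its 2 runs where the runs could be separated (triangles), with 95% Wilson intervals as bars. The libraries stand at 8.00% and 6.27% at 0 h, 9.04% and 11.3% after 24 h, then 12.9% and 13.7% after 96 h, and the runs of a library lie close to each other.

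The counts of the 2 runs could be separated in 5 of the 6 libraries, all but 96h replicate 2, by solving for the whole reads that give both the summed count and the deposited normalized value. In these 10 runs the 5p share of MIR221 ran from 6.18% to 8.20% at 0 h, from 8.20% to 11.5% at 24 h, and from 12.03% to 13.2% at 96 h. The runs of a library differed by between 0.207 and 1.23 percentage points. If both dates are runs of the same library, as read here, this is a spread of sequencing alone. It holds no difference between separate libraries. Which run carries which date is not given in the sources used here.

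**Figure D4:**
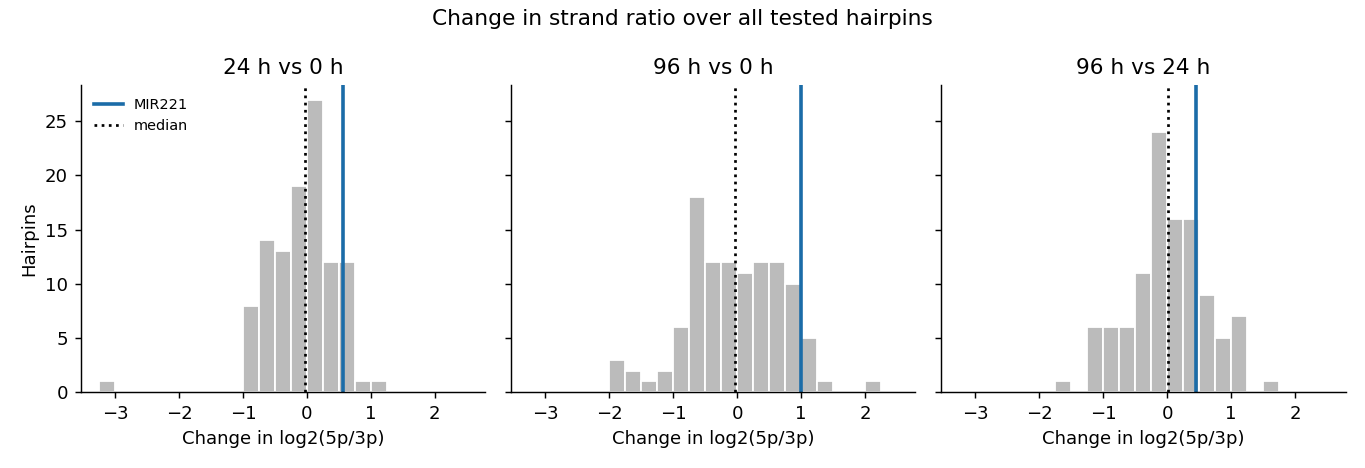
Number of hairpins by the change in log2(5p/3p) in each comparison of time points, over the 108 hairpins with both strands tested; the blue line is MIR221 and the dotted line the median. MIR221 lies to the right of the median in each panel, at 0.56, 1.003, and 0.44, with 11, 7, and 23 hairpins at or above it.

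The 2 hairpins differed in how far they used their minor strand. In MIR222 the 5p strand made up 0.0716% and 0.0903% of reads at 0 h, 0.214% and 0.168% after 24 h, then 0.0731% and 0.0916% after 96 h, each from 5 to 9 reads of miR-222-5p. Both 24 h libraries stood above the others, while the Wilson intervals of all 6 overlapped. Among the 108 tested hairpins, which leave out MIR222, 14.8% did not overlap between 0 and 24 h, with more 5p at 24 h. No such share was computed for less 5p at 96 h than at 24 h. In limma over the 373 hairpins with a read on each strand, the log2 ratio of 5p to 3p in MIR222 differed by 1.20 ± 0.28 (SE) at 24 h against 0 h, by 0.04 ± 0.28 at 96 h against 0 h, and by −1.16 ± 0.28 at 96 h against 24 h (adjusted p = 0.336, 0.981, and 0.626). The trend in spread behind this SE followed the reads of the whole hairpin, nearly all miR-222-3p, and not the 5 to 9 reads of miR-222-5p. For the level of miR-222-5p without the filter, the SE was 0.69 at 24 h and 0.75 at 96 h against 0 h. Among 147 hairpins with a mean of at least 100 reads, the minor strand had a median share of 1.63% at 0 h, 1.48% after 24 h, then 1.02% after 96 h. The minor share of MIR221 exceeded that of 103, 111, and 119 of these hairpins at the 3 time points, and the minor share of MIR222 that of 20, 27, and 21.

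The ratio of the neighbours, miR-221-3p to miR-222-3p, in reads was 1.02 and 1.19 at 0 h, 1.28 and 1.04 after 24 h, then 0.885 and 0.897 after 96 h. The 0 and 24 h libraries overlapped, and both 96 h libraries were below all others. In either direction, 51.4% of 72 pairs of neighbouring hairpins did not overlap between 0 and 96 h and 58.3% between 24 and 96 h. The means were 1.10 ± 0.124, 1.16 ± 0.168, and 0.891 ± 0.00900 (SD, n = 2). The log2 ratio differed by 0.07 ± 0.21 (SE) at 24 h and −0.30 ± 0.21 at 96 h against 0 h, and by −0.38 ± 0.21 at 96 h against 24 h (limma over 72 pairs of neighbouring hairpins within 10 kb, adjusted p = 0.935, 0.380, and 0.381). Leaving out 1 library gave −0.42 to −0.19 at 96 h against 0 h and −0.52 to −0.23 at 96 h against 24 h. The change at 96 h against 0 h was exceeded in size by 47 of the 72 pairs, of which 1.39% passed the test, namely MIR363 with MIR92A2, named after its value was seen. Mature names made from more than 1 hairpin were kept among the 72 pairs. miR-92a-3p is such a name, so its reads cannot be credited to MIR92A2 alone. The count of 1 pair that passed became 3 without 0h replicate 2, and 0 without any 1 of the other libraries or with the replicate number as a block. A difference in how far the 2 3p strands changed was thus not detectable at this depth of replication.

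Patterns most like those of the 3p strands were sought among the 319 other tested miRNAs that averaged 10 CPM or more, by the root mean square difference of log2 TMM CPM, centred on its mean, over the 6 libraries. Closest to miR-221-3p were miR-30c-1-3p, miR-550a-5p, miR-9-3p, miR-92b-3p, and miR-324-3p, at 0.105 to 0.146. Closest to miR-222-3p were miR-330-3p, miR-105-5p, miR-1299, miR-423-3p, and miR-378a-3p, at 0.0598 to 0.122. The 3p strands differed from each other by 0.196, and 19 miRNAs were closer to miR-221-3p and 28 closer to miR-222-3p than that. From miR-221-5p, cut from the same hairpin, miR-221-3p differed by 0.438, with 121 miRNAs closer. These are descriptions over 6 libraries that share their normalization.

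**Figure D5:**
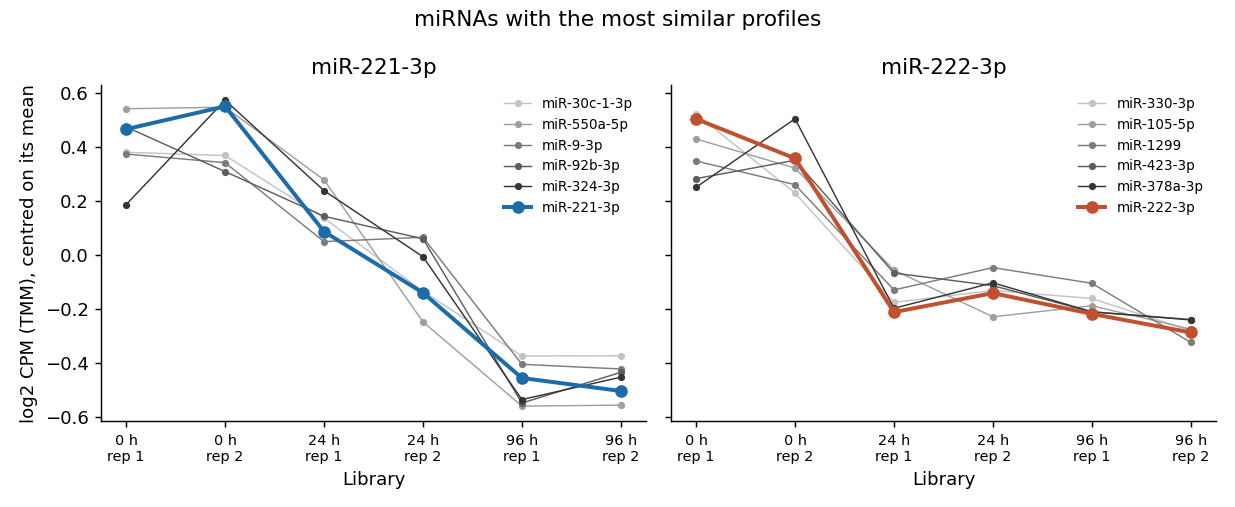
Log2 TMM CPM centred on its mean over the 6 libraries for miR-221-3p (left, blue) and miR-222-3p (right, orange), each with the 5 miRNAs of the most similar profile (grey). The miR-221-3p set steps down at both later time points, and the miR-222-3p set steps down between 0 and 24 h and runs nearly level from there.

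Of 19 miRNAs listed for a part in EMT or TGF-β responses, 17 were tested. At 96 h against 0 h 10 were higher and 2 lower by adjusted p in edgeR, as were 22.8% and 21.2% of all tested miRNAs, and the median log2-fold change was 0.56, against −0.10 over all 491 miRNAs. Both thresholds were met, in the upward direction, by miR-143-3p (6.32 ± 0.22 SE), miR-145-5p, and miR-200b-3p (1.60 ± 0.20), and by 12.6% of all tested miRNAs. miR-200b-3p belongs to a family that keeps cells epithelial by repressing ZEB1 and ZEB2. Of the other family members, miR-200a-3p was higher by 0.81 ± 0.20 (SE, adjusted p = 0.00947 in edgeR). The other three did not pass, at 0.20 for miR-429, −0.03 for miR-200c-3p, and −1.14 for miR-141-3p (adjusted p = 0.596, 0.925, and 0.141). miR-145-5p was counted 1 and 0 times at 0 h, 3 and 4 times at 24 h, and 29 and 25 times at 96 h, so that it passed the expression filter through the 96 h libraries alone and had to differ. The ratio of its 96 h to its 0 h level was 40.6, with a 95% exact interval from 6.98 to 1632 that covers counting error only. At 24 h 2 of the 17 were higher and 0 lower by adjusted p in edgeR (over all tested miRNAs 3.46% and 3.67%), and 1 of them, miR-143-3p, met both thresholds in the upward direction, as did 1.22% of all tested miRNAs. At 96 h against 24 h 3 were higher and 2 lower by adjusted p, against 8.96% and 3.67% of all tested miRNAs. Of these, 2 higher and 1 lower met both thresholds (3.67% and 2.24% over all), and the lower one was miR-29b-3p (−1.29 ± 0.31 SE).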

How the data were processed

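A549 small RNA was made into libraries with Illumina's kit, and the authors counted the reads of known mature miRNAs with miRDeep2; per the labels' processing notes FastQC and hg19 were used. The authors deposited counts, whole reads per mature miRNA and precursor with both runs of a library summed and without normalization. They also deposited normalized values, which are a signal: each run was scaled to a fixed total and both runs were added; 1 column repeats another in name and values and was not used, so that 96h replicate 2 has no normalized value here. Of 2822 entries, the one with the highest total was kept for each of the 2588 mature names; each of the 4 members had a single entry.

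The counts went into edgeR 4.0.16 (R 4.3.3): TMM normalization, filterByExpr with a minimum count of 10 (491 miRNAs, 3 of the 4 members), and the quasi-likelihood F-test in 1 model of all 6 libraries, with Benjamini-Hochberg adjustment. The study's thresholds defined a call: adjusted p below 0.05 together with a log2-fold change beyond 1 in size. The SE of a log2-fold change is its size divided by the square root of F. Strand and neighbour ratios, log2((count + 0.5)/(count + 0.5)), were tested with limma 3.58.1. The procedures were tested on simulated data. DESeq2 1.42.0, other normalizations and filters, other pseudocounts, the replicate number as a block, and leaving out each library were tried as alternatives. Positions are those of GENCODE on GRCh37, and sequences those of RefSeq. Python 3.11.15 served to separate the runs and draw the figures. The miRNAs of the locus, the listed miRNAs, and the named ones (the members and, for each 3p strand, the 5 miRNAs of the closest profile) were chosen with earlier results of these data known. The 2 lists were the miRNAs known for EMT or TGF-β responses and those on the X chromosome, with at most 4 examples fixed for each by rule; further examples were named after their values were seen. Counting limits are the 95% Wilson intervals; a single read was worth 0.167 to 0.428 CPM of the total count. A further list that had been planned is not reported here.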

Additional observations from a re-analysis of the deposited data

How the results depend on the processing

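The strength of the 3p calls, the sign of the near-zero changes of miR-221-5p, and the number of miRNAs called moved with the processing, and the cause was not tested unless stated. At 96 h against 0 h miR-221-3p passed both thresholds at −1.72 under total counts, −1.34 without miR-21-5p, −1.71 with limma on the normalized values (which lack 96h replicate 2), and −1.13 under a filter at a mean of 10 CPM, and miR-222-3p passed at −1.41, −1.04, and −1.40 under the first 3 of these. With the adjusted p alone as the threshold, which keeps the same values, −0.99 and −0.68 at 96 h and −0.53 and −0.61 at 24 h passed. miR-221-5p changed sign at 24 h against 0 h to −0.26 under total counts, −0.16 without miR-21-5p, −0.26 with limma, −0.062 with the stricter filter, and −0.021 with only the libraries of both time points; at 96 h against 0 h to −0.71, −0.34, −0.77, and −0.13 under the first 4 of these; and at 96 h against 24 h to 0.052 with DESeq2's size factors, 0.052 with the DESeq2 Wald test, and 0.018 without a filter.

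The 17 miRNAs called at 24 h against 0 h (6 higher, 11 lower) became 33 under total counts (5 and 28), 26 without miR-21-5p (5 and 21), 35 by adjusted p alone, and 11 with only the libraries of both time points. The 127 called at 96 h against 0 h (62 higher, 65 lower) became 215 under total counts (23 and 192) and 216 by adjusted p alone; the split was 39 and 121 without miR-21-5p and 19 and 153 with limma. The 29 called at 96 h against 24 h (18 higher, 11 lower) became 72 under total counts (14 and 58), 10 with limma, 46 without a filter, 17 with the stricter filter, 62 by adjusted p alone, and 44 with only the libraries of both time points.

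Leaving out each library in turn gave 4 to 33, 82 to 142, and 7 to 45 called miRNAs in the 3 comparisons; the extremes came on leaving out 24h replicate 2 (4), 0h replicate 1 (33), 96h replicate 2 (82), 96h replicate 1 (7), or 0h replicate 2 (45). It gave −1.07 to −0.94 for miR-221-3p and −0.77 to −0.61 for miR-222-3p at 96 h against 0 h; −0.12 to 0.17, −0.13 to 0.16, and −0.070 to 0.076 for miR-221-5p; 0.81 to 1.19 for the MIR221 strand ratio at 96 h against 0 h; and −0.076 to 0.22 for the ratio of miR-221-3p to miR-222-3p at 24 h against 0 h, lowest without 24h replicate 1. A time point left with 1 library was assumed to vary like the others. Over the other alternatives the strand ratio of MIR221 at 96 h stayed at 1.003 to 1.004, with adjusted p from 0.0895 to 0.282.

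With the replicate number as a block, 20, 124, and 41 miRNAs were called, and miR-221-3p changed by −0.53, −0.99, and −0.45; its adjusted p at 24 h was 0.0699 under the block. The deviations of same-numbered libraries correlated at −0.30 between 0 and 24 h, 0.31 between 0 and 96 h, and −0.18 between 24 and 96 h. Each correlation rests on a single difference between libraries per time point, so it cannot show whether the numbers pair the libraries. With 2 libraries per time point an exact permutation test cannot pass 0.05, and the 5 to 9 reads of miR-222-5p leave changes in that strand undetectable at this depth.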

Other observations

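Of 142 other mature miRNAs with a hairpin on the X chromosome, 46 were tested. At 96 h 6 were higher and 7 lower by adjusted p in edgeR, 2 and 4 of them by both thresholds (over all tested miRNAs 22.8% and 21.2% by adjusted p and 12.6% and 13.2% by both), and the median log2-fold change was −0.12, near that of all miRNAs. Higher by both thresholds were miR-450b-5p (1.20 ± 0.16 SE) and miR-361-3p (1.05 ± 0.23), and lower were miR-502-5p (−1.94 ± 0.63), miR-362-3p (−1.70 ± 0.60), miR-363-3p (−1.57 ± 0.45), and miR-362-5p (−1.15 ± 0.29). Of these, miR-502-5p (9 and 12 reads before, then 3 and 4 after 96 h) and miR-362-3p (9 and 16 reads before, then 6 and 4 after 96 h) reached the level of the expression filter at 0 h alone, where they were highest, and therefore had to differ. At 24 h 1 of the 46 was higher by adjusted p and 0 by both thresholds in edgeR (over all tested miRNAs 3.46% and 1.22%), and 0 were lower by either (3.67% and 2.24%). At 96 h against 24 h 2 were higher and 1 lower by adjusted p (over all 8.96% and 3.67%). By both thresholds 0 were higher and 1 lower (over all 3.67% and 2.24%), and the median log2-fold change was −0.10, against −0.05 over all tested miRNAs. Of the 5 miRNAs with the profile most like that of miR-222-3p, miR-105-5p is also on this list, with a log2-fold change of −0.61 ± 0.19 (SE, adjusted p = 0.0283 in edgeR) at 96 h; it was picked out after its value was seen. Some of the listed miRNAs, such as let-7f-5p and miR-92a-3p, are also made from hairpins on other chromosomes. Their reads cannot be assigned to the X chromosome. The part that the chromosome plays in any of the values of this list was not tested.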
